A study of Caenorhabditis elegans with 18 samples.

Results

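The response of Caenorhabditis elegans to the compound LK38 was read from 3 arrays of worms given LK38 (replicates A, B and C) and 3 arrays of worms given the solvent DMSO, out of 18 arrays of whole-animal RNA that also covered LK32, LK34, LK35 and LK56 in triplicate. All 6 arrays were of the wild-type strain N2, with no mutant allele or transgene in either group. The worms were grown on E. coli OP50 for 56 h at 22 degrees C to young adulthood and then held in liquid with the same bacteria, at 6000 worms per well. They received a compound at 100 µM, or DMSO, for 8 h. Nothing in the sources used here says whether the triplicates came from separate cultures, so the p-values measure the spread between these samples, which may be technical. Each array reads 22625 Affymetrix probe sets, sets of short probes that mostly stand for 1 gene each, and the 22548 that are not array controls were compared.

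Nematodes handle foreign chemicals in steps. Cytochrome P450 enzymes, flavin-containing monooxygenases and short-chain dehydrogenases first oxidise or reduce the molecule, UDP-glucuronosyltransferases and glutathione S-transferases then attach a sugar or glutathione to it, and ABC transporters such as the P-glycoproteins pump it or its products out of the cell. Much of this takes place in the intestine, which also makes lysozymes, C-type lectins and other defense proteins, many of them under control of the p38 MAP kinase PMK-1.

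The label of whole animals was checked against tissue markers: of the 12 intestinal marker genes, 12 were above the array floor on some of the 6 arrays, as were 11 of 12 body wall muscle, 10 of 11 epidermal, 11 of 15 neuronal and 8 of 17 pharyngeal genes. The floor is the lowest value the deposited table holds, an intensity of 4.605. Between 47% and 49% of the probe sets on each of the 6 arrays lay there. Any value more than 0.1% over it counted as above, so genes barely over it were included. For example, phat-4 of the pharynx averaged 4.64 with DMSO and 4.61 with LK38. Each array's mean correlation with its group ranged from 0.9537 (LK38 C) to 0.9857 over the 6 arrays. LK38 C stood apart in several ways. Some hsp-16 genes, small heat shock genes, read far higher on this array than on the other LK38 arrays: hsp-16.41 read 4.61, 4.61 and 185 on LK38 A, B and C and 4.61 on every DMSO array, and hsp-16.2 read 4.62, 4.63 and 84.9. The probe set of hsp-16.11 and hsp-16.1 read 12.2, 12.2 and 177 on LK38 A, B and C against 4.75 to 5.42 with DMSO. That of hsp-16.49 and hsp-16.48 read 55.4, 22.9 and 457 against 4.61 to 22.8. On both, every LK38 array lay above every DMSO array, though on the second only by 22.9 on LK38 B against 22.8 on DMSO C. The groups were likewise apart on 15.5% of all probe sets tested, and neither of these 2 was called by limma. hsp-16.20 and hsp-16.21 were at the floor on all 3 LK38 arrays. Summed over the 37 oocyte and eggshell genes, the intensity was 143316, 165660 and 203321 on LK38 A, B and C against 136848 to 143165 with DMSO, and over the 12 body wall muscle genes it was 68220, 53063 and 36293 against 61899 to 65119. The part of these shifts in the results below was not tested. In whole-animal RNA, fewer cells of a type and less RNA per cell cannot be told apart.

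LK38 raised 355 probe sets and lowered 169, or 1.57% and 0.75% of those tested (2.32% in all), at a Benjamini-Hochberg adjusted p under 0.05 in limma and a change of at least 2-fold. They stood for 299 and 131 distinct genes. The median log2 change was 2.02 among the raised probe sets and -1.85 among the lowered ones, where it was 0.000 over all probe sets tested. Large changes were mostly increases: 181 probe sets rose and 69 fell at least 4-fold, and 42 rose and 7 fell at least 16-fold. On all 524 called probe sets the 3 LK38 arrays lay wholly outside the range of the 3 DMSO arrays, as did 15.5% of all probe sets tested. The raised share of the calls, 67.7%, was 58.9% after each array was centred on its median and 57.2% after quantile normalization. These shifted the median difference of all probe sets by -0.14 and -0.08, and 502 and 494 of the 524 calls were shared. LK38 C was the lowest of the 3 LK38 arrays on 239 of the 355 raised probe sets and the highest on 84. With the array left out 514 rose and 137 fell, and 449 of the 524 calls were shared. In all, 306 of the 524 calls held when any 1 of the 6 arrays was left out.

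**Figure D1:**
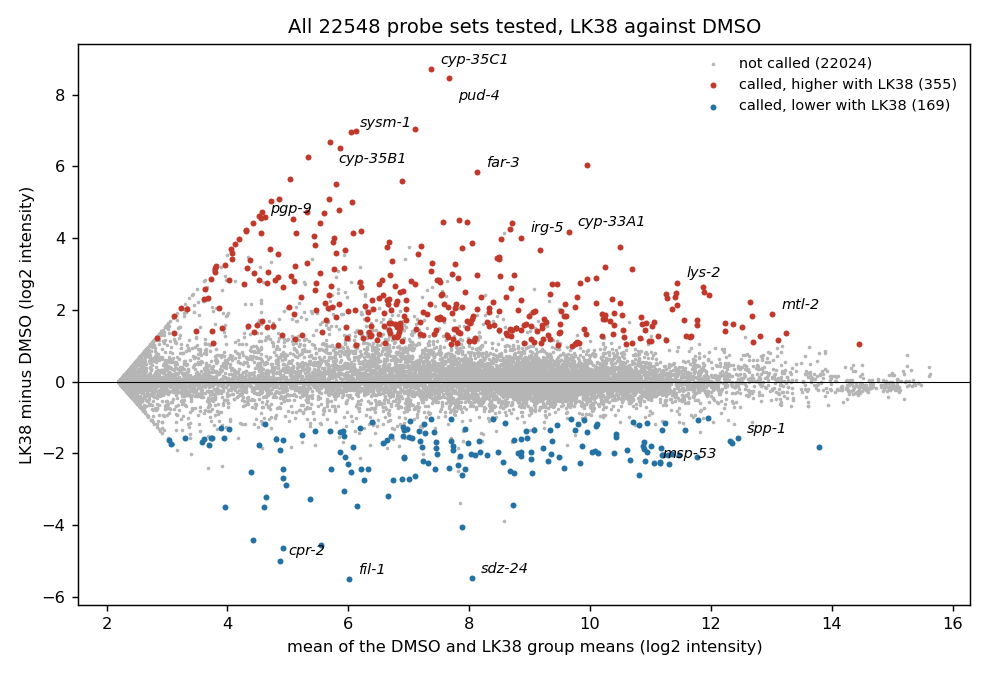
Log2 difference, LK38 minus DMSO, of each probe set (vertical axis) against its mean log2 intensity over the 6 arrays (horizontal axis), with the 355 raised probe sets in red, the 169 lowered ones in blue and all others in grey. The raised probe sets reach 8.71 and the lowered ones -5.51.

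The highest rise belonged to the cyp-35 family, P450 enzymes known in C. elegans for their induction by foreign chemicals. Of its 10 measured members 8 rose and none fell (none at a raw, unadjusted p under 0.05 in limma either), with a median log2 change of 4.39. The probe set of cyp-35C1 read 8.85, 8.32 and 7.19 on DMSO A, B and C and 1912, 2525 and 7977 on LK38 A, B and C, a 417-fold rise (log2 8.71, SE 0.64, adjusted p = 6.1e-06 in limma). LK38 C was the highest of the 3, the call held without any 1 array, and another probe set of the gene gave 128-fold. For cyp-35B1, which read 5.35, 4.95 and 4.95 with DMSO, the LK38 values ran the other way, at 881, 555 and 296. Its rise was 103-fold (SE 0.40 on the log2 scale, adjusted p = 8.6e-07 in limma). The neighbouring cyp-35B2 was at the floor on all 3 DMSO arrays and read 329.7, 328 and 118 with LK38, at least 50.7-fold higher. Within the A branch, cyp-35A2 was the only called member well above the floor with DMSO, at 129, 63.4 and 99.8, and it read 2064, 1483 and 1846 with LK38 (19-fold, adjusted p = 1.9e-05 in limma). Its relatives cyp-35A1 and cyp-35A5 rose at least 26.5-fold and at least 18.4-fold from the floor, and cyp-35A3 rose 23-fold. The call of cyp-35A4 (4.61 on every DMSO array, 108, 88.5 and 22.8 with LK38, log2 3.71, adjusted p = 0.025 in limma) was lost without any 1 of 5 arrays, with log2 values of 3.29 to 3.71, and held without LK38 C (4.41). cyp-35D1 stayed at the floor on all 6 arrays.

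Other P450 families rose in part. Of their 66 measured members 10 rose and none fell (21 higher and 1 lower at a raw p under 0.05 in limma). The count was 5 without DMSO B, and 6 without DMSO C or without LK38 A. cyp-33A1 was already well expressed in DMSO worms, at 186, 219 and 163, and read 2809, 2320 and 6136 with LK38, 18.2-fold higher (SE 0.35 on the log2 scale, adjusted p = 1.9e-05 in limma). cyp-14A4 was at the floor with DMSO and at 95.5, 70.2 and 58.1 with LK38, at least 15.9-fold higher (adjusted p = 1.9e-09 in limma). It was also at the floor on every array of the other compounds, which add no spread to the fit. This p-value therefore understates the spread among the LK38 arrays. cyp-33C7 spread more, from 236 and 136 on LK38 A and B to 30.1 on LK38 C, above a DMSO range of 7.35 to 9.5. Of these, cyp-33A1, cyp-14A4, cyp-33C7 and cyp-37A1 (log2 2.04) kept their calls without any 1 array.

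RNA of some genes known to serve P450 enzymes was also raised. P450s draw electrons from NADPH-cytochrome P450 reductase, encoded by emb-8, and in part from cytochrome b5. emb-8 read 135, 147 and 158 with DMSO and 359, 451 and 581 with LK38 (log2 1.63, SE 0.19, adjusted p = 2.6e-04 in limma). The cytochrome b5 gene cytb-5.1 read 1762, 1663 and 1817 with DMSO and 11125, 11056 and 6449 with LK38 (5.3-fold, adjusted p = 5.5e-05). vem-1, whose product has a cytochrome b5-like domain and belongs with the membrane-associated progesterone receptor components of vertebrates, read 369, 459 and 372 and then 4030, 3579 and 3426. That is 9.22-fold higher (SE 0.19 on the log2 scale, adjusted p = 8.4e-07). On each of these 3 genes the groups were far apart, and each call held without any 1 array. The reductase and cytochrome b5 genes, and the other genes that the selection rule of the methods does not pick (among them hgo-1, pho-11 and the hsp-16 genes), were chosen after their values were seen.

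Among the other oxidising and reducing enzymes, 5 of 30 short-chain dehydrogenases rose and none fell (1 lower at a raw p under 0.05 in limma). The calls of dhs-2, dhs-3, dhs-14 and dhs-20 held without any 1 array. That of dhs-23 was lost without LK38 B: it read 4.61 on the DMSO arrays and 402, 201 and 18.1 with LK38, and the log2 difference was 4.62 with all arrays and 3.71 to 5.95 with 1 left out. None of the 5 flavin-containing monooxygenases was called by limma (0 higher and 1 lower at a raw p under 0.05). fmo-2 stayed at or next to the floor, at 4.61, 4.61 and 4.66 with LK38.

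Conjugating enzymes rose as a minority of large families. Of 64 UDP-glucuronosyltransferases 9 rose and none fell (16 higher and 2 lower at a raw p under 0.05 in limma), and 5 rose without DMSO B or without LK38 A. ugt-22 read 23.3, 23.3 and 9.05 with DMSO and 531, 652 and 1579 with LK38, a 48.1-fold rise (adjusted p = 1.1e-04 in limma). ugt-41 rose 13-fold, from 7.8, 7.8 and 6.14 to 93.9, 126 and 69.3 (adjusted p = 4.8e-06). ugt-21 was at the floor with DMSO and at 18.1, 14.7 and 16.5 with LK38, at least 3.55-fold higher. Only ugt-22, ugt-41, ugt-21, ugt-61 and ugt-46 were called in every leave-one-out fit on at least 1 of their probe sets.

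Of 45 glutathione S-transferases 4 rose and none fell (7 higher and 3 lower at a raw p under 0.05 in limma). gst-5 read 121, 70.1 and 84.3 with DMSO and 2284, 1917 and 1654 with LK38, 21.6-fold higher (SE 0.35 on the log2 scale, adjusted p = 1.1e-05 in limma). gst-10 read 14.1, 7.41 and 15.4 and then 429.7, 294 and 433, a 32.4-fold rise (adjusted p = 1.9e-05). These were tight sets of arrays far above DMSO. gst-6 rose 2.77 and gst-7 1.03 on the log2 scale, and the call of gst-7 was lost without DMSO B or without LK38 C. gst-4, the usual reporter of the oxidative stress regulator SKN-1 in C. elegans, averaged 12.9 ± 5.47 with DMSO and 13.8 ± 2.53 with LK38 (SD, n = 3 arrays), with overlapping arrays, and was not called (log2 0.19, 95% interval -0.75 to 1.13, adjusted p = 1). The list of 14 SKN-1 controlled genes held 4 called members, which were these same 4 transferases.

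Of 22 ABC transporters of drug efflux 2 rose and none fell (3 higher and 0 lower at a raw p under 0.05 in limma). pgp-9, a P-glycoprotein, read 4.61, 5.31 and 4.61 with DMSO and averaged 114 ± 12.7 with LK38 (SD, n = 3 arrays), with 111 and 128 on LK38 A and B (23.6-fold, SE 0.24 on the log2 scale, adjusted p = 3.5e-07 in limma). pgp-3 read 25.1, 34.4 and 23.2 and then 78, 118 and 77.3, and its call (log2 1.72, adjusted p = 0.017) was lost without DMSO A, DMSO C or LK38 B. Both genes had 3 LK38 arrays above all 3 DMSO arrays. All 524 called probe sets, and 15.5% of all probe sets tested, had such separate arrays, so this adds nothing to the calls. Over the 242 members of the detoxification lists, 38 rose and none fell, against 1.57% and 0.75% of all probe sets.

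The other compounds were given at the same concentration for the same time, so LK38 was also compared with each of the 4 directly, in contrasts that leave the DMSO arrays out. These p-values were adjusted over all probe sets within a contrast and not over the 4 contrasts. LK38 was above DMSO and above all 4 compounds on 12 probe sets, those of cyp-35B1, far-3, cyp-35B2, cyp-35A1, pgp-9, cyp-35A5, cyp-33A1, cyp-14A4, ugt-41, vem-1, W01A11.1 and ugt-21. It was below all 4 on none. All of these probe sets except that of far-3 kept all 5 calls without any 1 of the DMSO or LK38 arrays. On cyp-35B1 the mean was 577 with LK38, 42.7 with LK56 and between 5.72 and 9.35 with the other 3 compounds. pgp-9 averaged 114 with LK38 and 5.31 to 7.17 with the others. cyp-33A1 averaged 3755 with LK38 and 175 to 263 with the others, against a DMSO range of 163 to 219. cyp-35A1, cyp-14A4 and ugt-21 were at the floor on all 15 arrays without LK38. The closest comparison was that of far-3, a fatty acid and retinol binding protein. It read 42, 43.3 and 27.9 with DMSO and 2304, 1991 and 2103 with LK38 (57.5-fold), against means of 289 with LK35, 555 with LK34, 472 with LK56 and 999 with LK32. LK38 was 2.14-fold above LK32 there (adjusted p = 0.041 in limma), a call that was lost without any 1 of 5 arrays, with log2 values of 1.04 to 1.14 beside 1.10 with all arrays. Without LK38 A the call against LK34 was lost as well (1.90 beside 1.96).

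**Figure D2:**
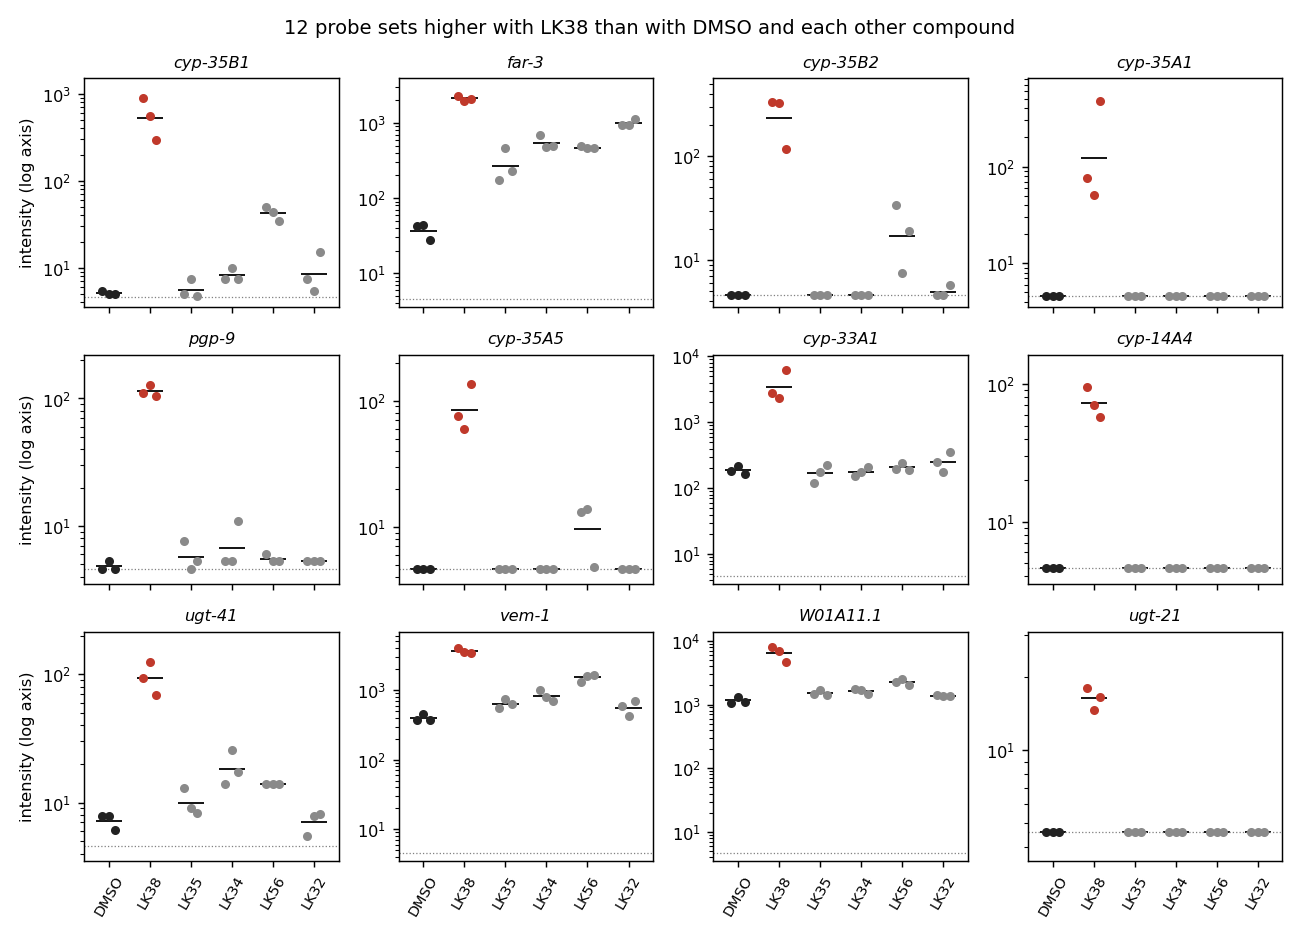
Intensity on a log axis of the 12 probe sets that were higher with LK38 than with DMSO and each of the other 4 compounds, 1 panel per gene. Each point is 1 of the 18 arrays, bars are geometric means of 3 arrays, and the dotted line is the floor of 4.605. All LK38 points lie above all other points, and on cyp-35A1, cyp-14A4 and ugt-21 the other 15 arrays lie on the floor.

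The fewest differences with all arrays were from LK35, though LK34 had as few or fewer in some fits with 1 array left out. LK38 was higher on 43 probe sets (0.191% of those tested) and lower on none, with 481 higher and 99 lower at a raw p under 0.05 in limma. Of the 43, 39 had also risen against DMSO. Detoxification genes made up much of this: 18 of the 242 members were higher with LK38 and none lower. gst-5 averaged 1952 with LK38 and 79.3 with LK35, at the DMSO level (log2 difference 4.66, adjusted p = 2.9e-05). cyp-35C1 averaged 4138 and 105 (5.13, adjusted p = 0.0029). On sysm-1, pud-4 and mtl-2 no difference between the compounds was called. For sysm-1 LK38 differed from LK35 by -0.42 on the log2 scale (95% interval -1.10 to 0.25). For pud-4 the difference was -0.04 (-0.92 to 0.85), and for mtl-2 0.04 (-0.25 to 0.34). Without LK38 C, 93 probe sets were higher and 3 lower.

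Against LK34, LK38 was higher on 33 probe sets (0.146%) and lower on 19 (0.0843%), with 273 and 191 at a raw p under 0.05. Without LK38 C 67 were higher, and without LK38 B 11 were lower. The lower side held the monooxygenase gene fmo-2 and several glutathione S-transferases. fmo-2 averaged 4.62 with LK38 and 3674 with LK34 (log2 difference -9.57, adjusted p = 1.3e-08 in limma). gst-4 averaged 13.8 and 928, and gst-19 4.61 and 164. cysl-2, a cysteine synthase homolog of the hydrogen sulfide response, was raised by LK38 over DMSO (11.6, 12 and 7.78, then 46.2, 46 and 186) and stood at 92.8 with LK38 against 589 with LK34 (adjusted p = 0.017). On the higher side, T16G1.6 read 615, 499 and 146 with LK38 and was at the floor on all DMSO, LK35 and LK34 arrays, at least 77-fold lower.

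Against LK56 and LK32 the differences were many. LK38 was higher on 236 probe sets (1.05%) and lower on 659 (2.92%) against LK56, 3.97% in all, and higher on 240 (1.06%) and lower on 605 (2.68%) against LK32, 3.75% in all. With arrays centred on their medians 474 probe sets were higher and 591 lower than with LK56. Without LK38 C 369 were higher than with LK56. The immune effector sysm-1 and the gene pud-4 set these compounds apart from LK38: pud-4 averaged 12.4 with LK56 and 21.4 with LK32, near its DMSO values. LK56 gave the stronger rise on part of the detoxification genes. cyp-35A2 averaged 1798 with LK38 and 4446 with LK56 (log2 difference -1.32, adjusted p = 0.04), cyp-35A3 averaged 178 and 523 (-1.67, adjusted p = 0.0018), and gst-6 averaged 548 and 2121 (-2.15, adjusted p = 0.012). For cyp-35C1 the means of 4138 and 1139 differed by 1.57 (95% interval 0.18 to 2.96), which did not pass the adjusted test (adjusted p = 0.18). Of the 98 sperm genes measured, 44 were lower with LK38 than with LK56 and 39 lower than with LK32. None was called in either direction against LK35 or LK34.

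**Figure D3:**
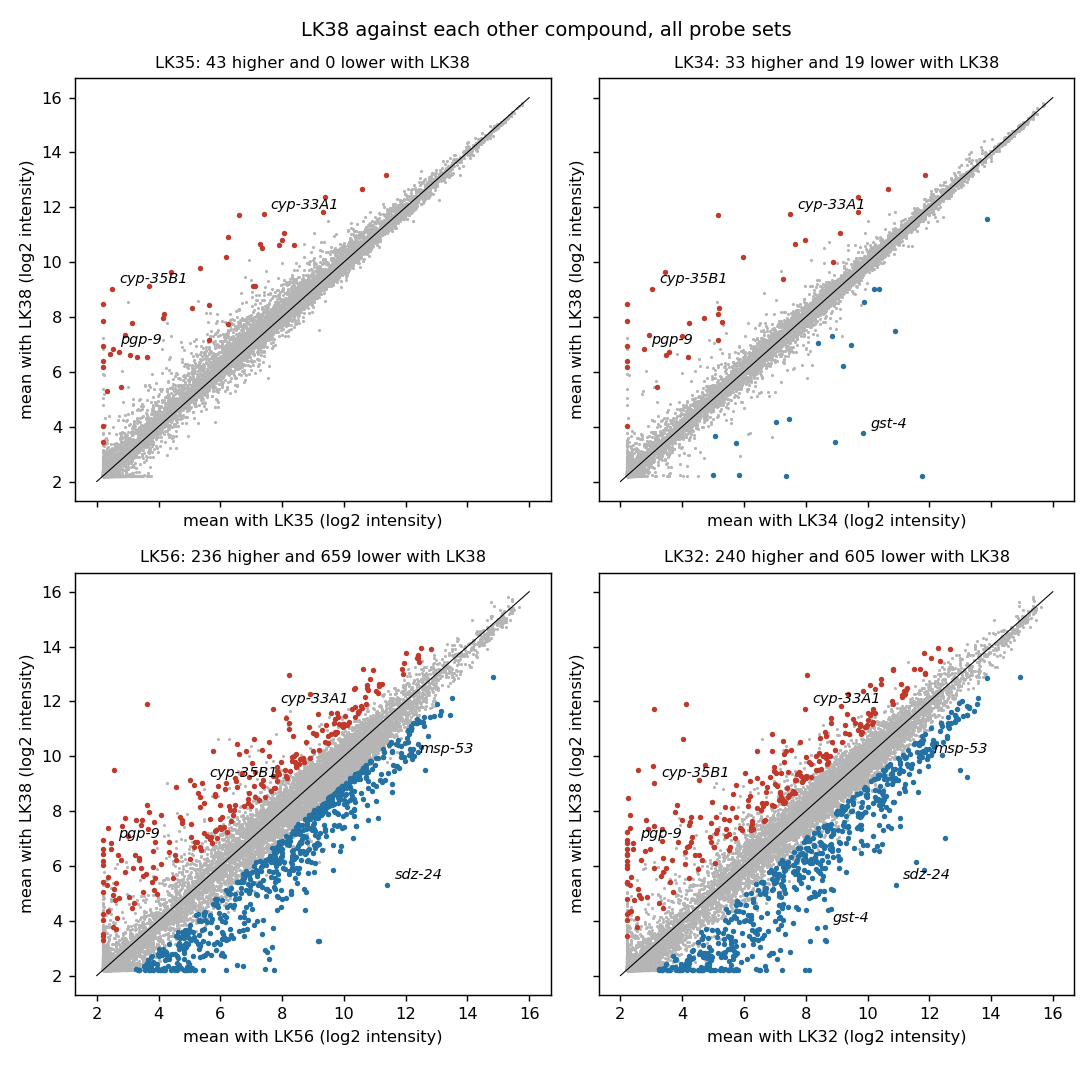
Mean log2 intensity of each probe set with another compound (horizontal axis) and with LK38 (vertical axis), 1 panel per compound. Probe sets that differ directly between the compounds are in colour, and the line marks equal means. The coloured points number 43 for LK35, 52 for LK34, 895 for LK56 and 845 for LK32.

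Defense genes moved in both directions. Of 24 genes that depend on p38 or respond to infection, 8 rose and none fell, with a median log2 change of 0.71. The raised share was 33.3%, against 1.57% of all probe sets. At a raw p under 0.05 in limma 12 were higher and 1 lower. sysm-1, a secreted peptide gene used as a reporter of PMK-1 activity, read 5.99, 5.88 and 5.88 with DMSO and 551, 531 and 1333 with LK38 (123-fold, SE 0.31 on the log2 scale, adjusted p = 8.6e-08 in limma). irg-5, an infection response gene, read 168, 105 and 87.8 and then 2109, 1832 and 1698 (16.2-fold, adjusted p = 8.6e-07). irg-4 rose 14.8-fold, from 32.7, 28.6 and 20.1 to 593, 464 and 220.2. The LK38 and DMSO arrays of these genes did not overlap, as on all 524 called probe sets and 15.5% of all probe sets tested. None of the 18 measured genes of the p38 pathway itself was called by limma (2 higher and 0 lower at a raw p under 0.05): pmk-1, the kinase, read 80.8, 72.2 and 93.3 with DMSO and 96.4, 135 and 108 with LK38 (log2 0.46, 95% interval -0.14 to 1.05), and tir-1, an adaptor upstream of it, differed by 0.42 (-0.34 to 1.19). The level of a kinase's RNA does not report its activity.

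**Figure D4:**
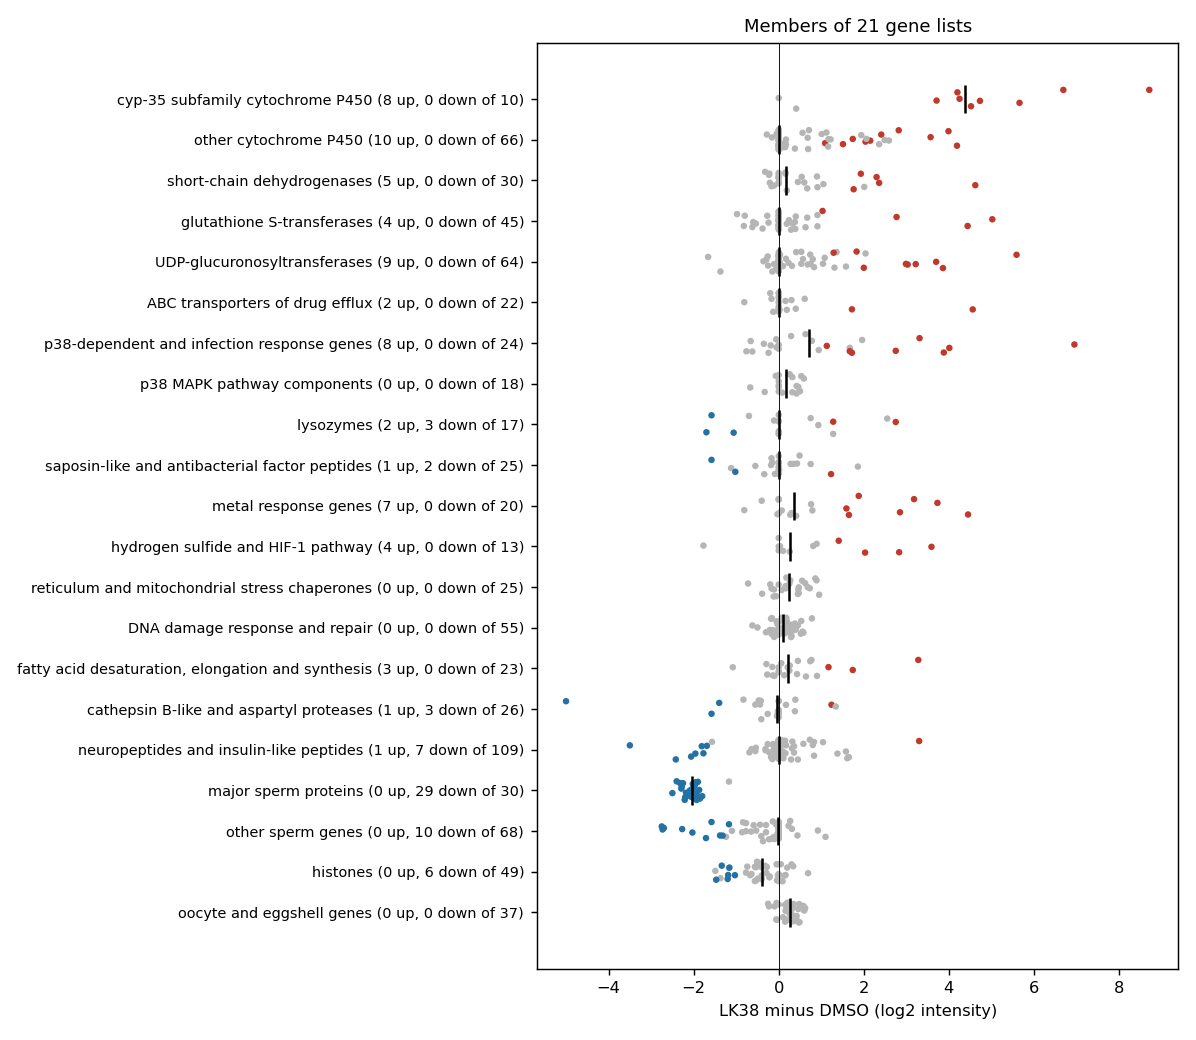
Log2 difference, LK38 minus DMSO, of each member of 21 gene lists, 1 row per list, with red points raised, blue points lowered, grey points not called and a black tick at the median. The cyp-35 row has the highest median, 4.39, and the row of major sperm proteins the lowest, -2.04.

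Defense proteins that act on bacteria were counted by family. Among 17 lysozymes, which cleave bacterial walls, 2 rose and 3 fell, or 11.8% and 17.6% against 1.57% and 0.75% of all probe sets. lys-2 read 1133, 924 and 1183 with DMSO and 8290, 7510 and 6116 with LK38 (6.75-fold, adjusted p = 6.5e-06 in limma), and its neighbour lys-1 rose 2.43-fold. The counts turned on single arrays: 1 lysozyme fell without DMSO A, B or C and none without LK38 B, while 4 rose without LK38 C. spp-1, a saposin-like antibacterial peptide gene, fell from 9577, 10167 and 9205 to 3973, 3195 and 2630 (log2 -1.58, adjusted p = 6.2e-04). Over the 25 saposin-like genes 1 rose and 2 fell, and their summed intensity was 42782 to 46384 with DMSO and 37142, 29557 and 21831 on LK38 A, B and C. Among 235 C-type lectins 8 rose and 3 fell, or 3.4% and 1.28% against 1.57% and 0.75% of all probe sets, and between 1 and 5 rose when DMSO A, B or C or LK38 A or B was left out. fipr-24, a member of the fungus-induced peptide family of the epidermis, read 9.78, 9.78 and 17.8 with DMSO and 2555, 1736 and 874 with LK38, 132-fold higher (adjusted p = 1.3e-06). Its probe set can also bind related sequences. With cnc-4 (log2 2.81) it was 1 of 2 called members among 33 epidermal antimicrobial peptide genes.

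Metal-binding and metal-response genes rose. Of 20 measured 7 rose, or 35% against 1.57% of all probe sets, and none fell. At a raw p under 0.05 in limma 10 were higher and 1 lower. The intestinal metallothionein gene mtl-2 was abundant without compound, at 4437, 3957 and 4548, and read 15634, 13806 and 18445 with LK38 (3.68-fold, SE 0.14 on the log2 scale, adjusted p = 5.4e-06 in limma). Its other probe sets gave 2.44-fold and 4.69-fold. cdr-4, a member of the cadmium-responsive family, read 43.7, 35.5 and 43.7 and then 1529, 1157 and 397 (21.8-fold, adjusted p = 1.4e-04). Relatives cdr-2 and cdr-6 rose 1.65 and 1.59 on the log2 scale, whereas the call of cdr-1 was lost without DMSO A, B or C or LK38 B, and its log2 difference was 2.08 without LK38 A against 3.18 with all arrays.

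Of 13 genes of the hydrogen sulfide and HIF-1 pathway 4 rose, or 30.8% against 1.57% of all probe sets, and none fell. At a raw p under 0.05 in limma 6 were higher and 1 lower. phy-2, a prolyl 4-hydroxylase subunit that modifies collagen, read 15.9, 15.9 and 16 with DMSO and 179, 198 and 200.2 with LK38 (12.1-fold, adjusted p = 1.1e-06 in limma). All 3 LK38 arrays were close together there. The calls of phy-2 and cysl-2 held without any 1 array and those of ethe-1 and sqrd-1 did not.

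Few general stress genes were called. Among 25 chaperones of the endoplasmic reticulum and mitochondria none was called by limma (10 higher and 1 lower at a raw p under 0.05), although 3 rose without LK38 C and 1 without DMSO C. hsp-4, the reticulum chaperone BiP, differed by 0.55 (95% interval 0.20 to 0.89, adjusted p = 0.089), and the mitochondrial hsp-6 by -0.12 (-0.47 to 0.23). None of 31 proteasome subunits (3 higher and 4 lower at a raw p under 0.05) and none of 17 superoxide dismutases and catalases (1 and 2) was called. hsp-12.3, a small heat shock protein gene, rose 5.13-fold, from 688, 1485 and 1667 to 8261, 6517 and 4260. It was 1 of 2 raised members among 19 cytosolic heat shock probe sets, or 10.5% against 1.57% of all probe sets tested. The other was shared by the Hsp70 genes F44E5.5 and F44E5.4 and read 69.4, 117 and 679 with LK38. It was highest on the array that also stood out for hsp-16 genes, and its call was lost without DMSO A or DMSO B. Over the list 7 probe sets were higher and 1 lower at a raw p under 0.05 in limma, with a median log2 change of 0.72. hsp-1 read 4241, 4813 and 5260 with DMSO and 7752, 7700 and 9001 with LK38. It fell short of the 2-fold limit (log2 0.77, adjusted p = 5.4e-04 in limma). hsp-12.6 fell, from 78.3, 88.5 and 259 to 30.9, 20.9 and 18, a call that was lost without DMSO C, LK38 B or LK38 C.

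Genes of the DNA damage response were examined as a list of 55. None was called by limma, with 2 higher and 1 lower at a raw p under 0.05 and a median log2 change of 0.10. rad-51, the recombinase of double-strand break repair, read 1092, 1163 and 1157 with DMSO and 994, 1267 and 1272 with LK38 (log2 0.04, 95% interval -0.19 to 0.28). The alkylguanine transferase genes agt-1 and agt-2, which remove alkyl groups from DNA, differed by -0.13 (-0.45 to 0.19) and 0.04 (-0.34 to 0.43). The cell death genes egl-1 and ced-13 were at the floor on all 6 arrays, so that no change in them could be measured in RNA of whole animals.

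Lipid genes were called singly. Among 23 genes of fatty acid synthesis, desaturation and elongation 3 rose, or 13% against 1.57% of all probe sets, and none fell. At a raw p under 0.05 in limma 9 were higher and 1 lower, and 1 rose when DMSO A, LK38 A or LK38 B was left out. fat-5, a delta-9 desaturase gene, read 66.9, 115 and 43.7 with DMSO and 632, 968 and 505 with LK38 (9.71-fold, adjusted p = 3.2e-04 in limma). The remaining calls, of fat-6 (log2 1.17) and fasn-1, did not hold in every leave-one-out fit. Of 7 vitellogenin genes, which encode yolk proteins, vit-1 rose on its brightest probe set (a dimmer one of vit-4 was called too), from 596, 547 and 532 to 2570, 3428 and 13177 (8.75-fold, adjusted p = 0.0088), with LK38 C far above the other arrays. Lipases went both ways: lipl-1 read 1674 and 1094 on LK38 A and B but 29.2 on LK38 C, against 8.03 to 8.25 with DMSO, and its call (log2 5.53, adjusted p = 0.023) was lost without any 1 of the DMSO arrays, LK38 A or LK38 B. lips-10 rose on both of its probe sets and these calls held without any 1 array. Of 64 genes of fatty acid activation and oxidation 3 rose and 1 fell, or 4.69% and 1.56% against 1.57% and 0.75% of all probe sets.

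Several enzyme genes in no list were noticed among the calls. hgo-1, which opens the ring of homogentisate in tyrosine breakdown, read 1062, 928 and 959.9 with DMSO and 3109, 3189 and 4006 with LK38 (log2 1.80, adjusted p = 1.3e-05 in limma). kynu-1, the kynureninase of tryptophan breakdown, rose 4.08-fold. Both subunits of propionyl-CoA carboxylase rose, pccb-1 2.99-fold and pcca-1 3.9-fold and 2.69-fold on its probe sets. The calls of these genes held without any 1 array. Enzyme genes of amino acid breakdown were also called in the other direction: uroc-1, of histidine breakdown, was at -1.53 and gldc-1, of glycine cleavage, at -1.40 on the log2 scale, and each lost its call without any 1 of 5 arrays. Of 26 genes of sugar metabolism 2 rose, pck-1 of gluconeogenesis and the lactate dehydrogenase gene ldh-1, and none fell. The raised share was 7.69%, against 1.57% of all probe sets. At a raw p under 0.05 in limma 13 were higher and 2 lower. None of 76 cytosolic ribosomal protein genes was called (0 higher and 24 lower), with a median log2 difference of -0.11.

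The largest falls were of single genes of several kinds. fil-1, a lipase gene known for its induction by fasting, read 517, 383 and 416 with DMSO and 14.3, 11.8 and 5.17 with LK38, 45.5-fold lower (log2 -5.51, SE 0.43, adjusted p = 1.1e-05 in limma). sdz-24 went from 1527, 2210 and 1638 to 47.8, 47 and 27.7 (44.6-fold lower, adjusted p = 2.1e-04). cpr-2, a cathepsin B-like protease gene, went from 177, 183 and 137 to 6.06, 4.82 and 4.69 (31.9-fold lower, adjusted p = 1.3e-07). On fil-1 and cpr-2 the LK38 arrays were near the floor, and on sdz-24 they were above it. dlhd-1 and F49E12.10 fell 25-fold and 23.4-fold, and T28A11.19 fell to the floor on every LK38 array, at least 11.3-fold lower. Among 26 cathepsin B-like and aspartyl proteases, cpr-2, cpr-5 (log2 -1.58) and cpr-4 (log2 -1.40) fell and asp-4 rose. These were 11.5% and 3.85%, against 0.75% and 1.57% of all probe sets. The call of cpr-4 did not hold in every leave-one-out fit. pho-11, an acid phosphatase gene, went from 5108, 4128 and 4104 to 922, 664 and 639.

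**Figure D5:**
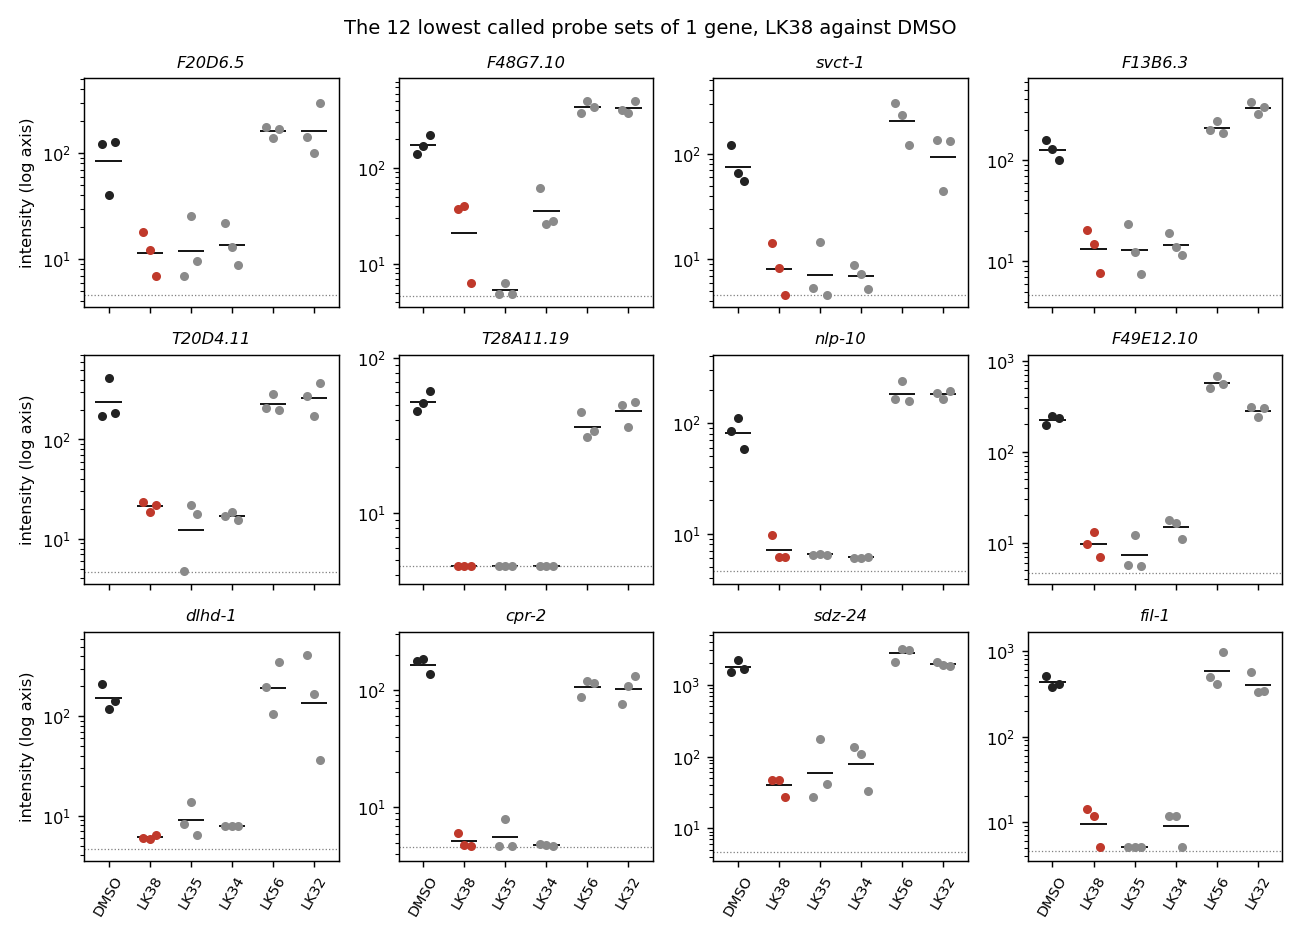
Intensity on a log axis of the 12 called probe sets of 1 gene with the largest falls, LK38 minus DMSO, 1 panel per probe set. Each point is 1 of the 18 arrays, bars are geometric means of 3 arrays, and the dotted line is the floor of 4.605. On fil-1 the LK38 arrays lie between 5.17 and 14.3 and the DMSO arrays between 383 and 517.

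On these probe sets LK38 was not called different from LK35 or LK34. For fil-1 the mean was 5.17 with LK35 and 9.6 with LK34, and LK38 differed from LK34 by 0.09 on the log2 scale (95% interval -0.85 to 1.03). cpr-2 differed from LK35 by -0.12 (-0.62 to 0.39). With LK56 and LK32 fil-1 averaged 633 and 416, and cpr-2 107 and 105.

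Intestinal markers did not move one way. Of the 12, mtl-2 and act-5 rose and ifb-2 and pept-1 fell, each share being 16.7%, against 1.57% raised and 0.75% lowered of all probe sets. The GATA factor gene elt-2, the main regulator of the intestine, was not called (log2 -0.19, 95% interval -0.65 to 0.26). ifb-2, an intermediate filament gene of the intestine, went from 2636, 2383 and 2086 to 987, 896 and 592 (2.92-fold lower, adjusted p = 0.0012 in limma). The calls of act-5 and pept-1 were lost in some leave-one-out fits. The summed intensity of the list was 51085 to 56840 with DMSO and 61816, 58343 and 53144 on LK38 A, B and C. No member of the muscle, pharynx, neuron, epidermis or somatic gonad marker lists was called by limma with all arrays (1, 0, 1, 0 and 0 higher, and 0 lower, at a raw p under 0.05), and 1 muscle gene rose without LK38 C.

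Genes of the major sperm proteins, and a minority of other sperm genes, were lower with LK38. Major sperm proteins are the motile cytoskeleton of nematode sperm, made in hermaphrodites during the last larval stage and held in stored sperm through adulthood. Of 30 measured probe sets 29 fell, or 96.7% against 0.75% of all probe sets, and none rose. The median log2 change was -2.04, with a range of -2.50 to -1.17. Summed intensities were 81828 to 96172 with DMSO and 27322, 19694 and 18127 with LK38. msp-53 read 4314, 5195 and 4543 with DMSO and 1159, 941 and 819 with LK38 (4.85-fold lower, SE 0.22 on the log2 scale, adjusted p = 5.5e-05 in limma). These genes are near-identical copies, and every probe set for them may bind several, so the 30 probe sets are far from independent. Among 68 other sperm genes 10 fell, or 14.7% against 0.75% of all probe sets, and none rose. Their median log2 change was -0.01, and -0.34 over the 44 above the floor on some of the 6 arrays. At a raw p under 0.05, 1 was higher and 17 lower, and 6 fell without any 1 of DMSO A, DMSO B, DMSO C or LK38 B. msd-2, a gene of the major sperm protein domain family, read 377, 363 and 319 and then 96.8, 67 and 59.7. No msp probe set was called between LK38 and LK35 or LK34: over the msp probe sets the 95% intervals of the direct log2 differences lay within -0.48 to 1.26 and -0.68 to 0.89. Against LK35 several intervals were wholly positive, or higher with LK38, such as 0.13 to 1.04 for msp-36, and none was wholly negative.

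On its brightest probe set, none of the 37 oocyte and eggshell genes was called by limma (10 higher and 1 lower at a raw p under 0.05), with a median of 0.26 and changes between -0.25 and 0.62. A dimmer probe set of mex-5, an RNA-binding protein gene of this list, was called, at 363, 394 and 429 with DMSO and 697, 932 and 1142 with LK38 (log2 1.20, adjusted p = 0.01). None of 41 germ granule and meiotic chromosome genes was called (3 higher and 4 lower). Of 49 histone probe sets 6 fell, or 12.2% against 0.75% of all probe sets, and none rose (1 higher and 26 lower). Their median was -0.40. They too share sequence between copies. The summed intensity of the oocyte list, given above, was highest on LK38 C, and that of the sperm proteins was lowest there.

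Signalling peptides were called in both directions. Of 109 neuropeptide and insulin-like peptide genes 7 fell and flp-6 rose, or 6.42% and 0.917% against 0.75% and 1.57% of all probe sets. These counts moved with single arrays: 4 fell without DMSO A and 5 rose without LK38 C. nlp-10 read 84.9, 109.7 and 58.2 with DMSO and 9.68, 6.18 and 6.23 with LK38 (11.3-fold lower, SE 0.23 on the log2 scale, adjusted p = 1.9e-06 in limma). nlp-12 fell 3.9-fold and ins-23 3.42-fold, and both calls held without any 1 array. The neuronal marker list summed to 4567 to 4790 with DMSO and to 6375, 5820 and 4567 with LK38.

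Of 163 cuticle collagens 4 rose and 3 fell, or 2.45% and 1.84%, near the 1.57% and 0.75% of all probe sets. col-101 read 443, 482 and 312 with DMSO and 2718, 2786 and 3494 with LK38 (7.35-fold, adjusted p = 8.4e-07 in limma). col-129 read 2066, 1980 and 1981 and then 430.1, 459 and 368 (4.81-fold lower, adjusted p = 2.3e-06), and col-81 fell 4.75-fold. Each had tight arrays in both groups. No molting gene of 52 was called by limma (8 higher and 1 lower at a raw p under 0.05), although 2 rose without LK38 C.

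Among 267 nuclear hormone receptors, the large nematode family of ligand-regulated transcription factors, none rose and 4 fell (5 higher and 12 lower at a raw p under 0.05 in limma). That is 1.5% lowered and none raised, against 0.75% and 1.57% of all probe sets. Without LK38 C 4 rose and 2 fell. nhr-202 read 35.4, 18.1 and 29.3 with DMSO and 9.45, 8.11 and 9.28 with LK38 (log2 -1.57, adjusted p = 0.0088). Most receptors lay low on the array: 110 of the 267 were above the floor on some of the 6 arrays.

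The largest rise outside the detoxification families was that of pud-4, named for its rise in long-lived daf-2 mutants of C. elegans. It read 12.2, 8.61 and 11.9 with DMSO and 4156, 3347 and 4015 with LK38, 354-fold higher (log2 8.47, SE 0.41, adjusted p = 1.5e-07 in limma). oac-14 and oac-6, homologs of O-acyltransferases, rose 91.4-fold and at least 21.6-fold. They were the called members among 53, or 3.77% against 1.57% of all probe sets.

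The raised genes were placed on the chromosomes to describe where they lie. Of the 298 raised genes that could be placed, 31.2% were on chromosome V and 20.1% on X, which hold 25.3% and 13.8% of the measured genes, and 6.38% were on I, which holds 14.5%. The 130 placed lowered genes lay on II (25.4%, against 17.7%) and IV (27.7%, against 15.6%) more often. Gene families lie in clusters in this genome, so these shares are a description of linked genes. In 20 runs, raised genes were direct neighbours among the measured genes, and these runs held 44 genes, 14.8% of those placed. They joined cyp-35A5, cyp-35B1 and cyp-35B2, cdr-4, cdr-6 and cdr-2, skr-13, skr-9 and skr-8, and the pairs gst-6 and gst-7, lys-1 and lys-2, T16G1.7 and T16G1.6, and cyp-34A8 and cyp-34A9. Neighbouring copies can share probe sequence. Of 90 called genes with several probe sets, 34 had all of them called and none had calls in opposite directions.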

How the data were processed

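Whole-worm RNA was hybridised to Affymetrix C. elegans arrays, 3 per group. The authors deposited 1 table of linear intensity values, made with GCRMA (version not given in the sources used here), which corrects background by probe sequence, normalizes across arrays and leaves dim probe sets at a common floor of 4.605. That floor compresses fold changes of genes near it, and probe sets that share sequence cannot separate gene copies. The number of arrays limits the precision.

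Of 22625 probe sets, 77 controls were left out. Symbols came from the platform annotation, updated by Entrez ID to RefSeq (WBcel235): 20810 probe sets had 1 gene, 843 several and 895 none, and 20701 matched. The log2 intensities were fitted with limma 3.58.1 (R 4.3.3), with 1 mean for each of 6 groups over all 18 arrays and no offset. The spread of all groups thus enters each test (12 residual degrees of freedom). Groups held at the floor add no spread, so p-values of genes at the floor in most groups are too small. Calls needed a p under 0.05 after Benjamini-Hochberg adjustment over all 22548 and a change of at least 2-fold. Where every array of a group was at the floor, the fold is given as at least that size. Gene lists were counted by members called, each gene by its brightest probe set of 1 gene.

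The arrays, members, gene lists and contrasts were chosen with earlier results of these data known. The genes named were, among called probe sets of 1 gene without overlap, the 12 highest and 12 lowest, up to 4 per list, and the 6 highest and 6 lowest per contrast between compounds, plus a fixed set (p38 pathway, DNA damage, chaperone and regulator genes). The fixed gene hsp-16.1 had no probe set of its own. On simulated data 74 of 100 probe sets changed by 1.5 and 93 of 100 changed by 3 on the log2 scale were recovered for the contrast with DMSO, and 1 unchanged one was called. The changed probe sets were drawn only from those well above the floor with DMSO, and the simulated noise had no floor. These rates therefore do not apply to genes that start at the floor. Every simulated array also had the same spread, so the rates do not cover an array that stands apart, as LK38 C did. Alternatives covered scaling, an offset of 16, a limit on dim probe sets, limma's trend and array weights, the replicate block, the 6 arrays alone, probe sets that bind single genes, and leaving out arrays.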

Additional observations from a re-analysis of the deposited data

Results flagged for a closer look

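A set of 16 probe sets moved in opposite directions against DMSO with LK38 and LK32, with a direct difference between the compounds past the adjusted threshold in limma. All fell with LK38 and rose with LK32. The log2 differences, LK38 minus LK32, were -5.02 for lipl-3, -4.65 for nlp-10, -4.11 for ZK1290.5, -3.99 for cpr-4, -3.80 for gplb-1, -3.66 for flp-15, -3.65 for F58H1.7, -3.62 for gda-1, -3.52 for flp-16, -3.46 for clec-7, -3.23 for the probe set of H28G03.5 and Y57E12AL.3, -3.18 for R05H10.1, -3.15 for T15B7.1, -3.14 for nhr-202, -3.10 for mfsd-8.1 and -2.85 for nssp-64. The neuropeptide genes nlp-10, flp-15 and flp-16 are among them. With LK38 against DMSO, the calls of lipl-3, cpr-4, flp-15, flp-16, R05H10.1, nssp-64, ZK1290.5 and the probe set of H28G03.5 and Y57E12AL.3 did not hold in every fit with 1 array left out.

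The same pattern held between LK38 and LK56 for nlp-10 (-4.68), flp-15 (-3.54) and the probe set of H28G03.5 and Y57E12AL.3 (-3.04). Between LK38 and LK34 it held for 1 probe set shared by several nspa genes (-3.40). The opposite directions against DMSO rest on the same DMSO arrays, while the direct differences do not use them.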

How the results depend on the processing

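Leaving out 1 array at a time gave 242 to 514 raised and 124 to 160 lowered probe sets against DMSO. LK38 minus LK35 gave 35 to 93 higher and 0 to 3 lower, LK38 minus LK34 23 to 67 and 11 to 18, LK38 minus LK56 173 to 369 and 506 to 630, and LK38 minus LK32 173 to 337 and 469 to 602. Of the 119 called genes that were named by rule, 82 kept their call in all of these fits and 37 lost it in at least 1. None of these 119 changed direction under any alternative, while kgb-1, gst-4, sek-1, rad-51, agt-2 and hsp-6, none of them called, changed sign under some. The arrays of LK38 and DMSO alone gave 80 raised and 48 lowered probe sets, and 121 of the 524 calls were shared. That fit estimates the spread from fewer arrays, and the part of this in the lost calls was not tested.

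Array weights gave 810 raised and 307 lowered against DMSO, 108 and 11 against LK35, 141 and 76 against LK34, 650 and 1012 against LK56, and 656 higher against LK32. Median centring gave 301 lowered against DMSO, 3 lower than LK35, 35 lower than LK34, 474 higher than LK56 and 391 higher than LK32. Quantile normalization gave 265 lowered against DMSO, 2 lower than LK35 and 393 higher than LK56. Without probe sets that can bind several genes (s_at and x_at) 158 rose and 58 fell against DMSO, no major sperm protein probe set remained, and counts were 107 and 382 against LK56 and 109 and 336 against LK32. With no fold limit 357 fell against DMSO, 1 was lower than LK35, and counts were 444 and 1546 against LK56 and 429 and 993 against LK32. At 2-fold without a test 812 rose and 322 fell. The brighter probe sets alone, and the offset of 16, each gave 1 lower than LK35.

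An alternative chosen after seeing the data left out DMSO B and LK38 C, the arrays that correlated least with their groups: 87 probe sets were higher and 2 lower than with LK35, and 62 higher than with LK34.

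The replicate letters did not pair the arrays: the deviations of same-letter LK38 and DMSO arrays correlated at 0.078, 0.091 and -0.027. With the letter as a replicate block 316 probe sets rose and 158 fell, with 457 calls shared. Direct contrasts with the block gave 39 and 0 (LK35), 29 and 13 (LK34), 223 and 640 (LK56), and 225 and 575 (LK32). Calls among probe sets near the floor are limited by compression there: 13 named genes lost their call with the offset of 16.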
